A study of Mus musculus with 42 samples.

Results

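The comparison described here is a difference of differences: how far the effect of the TNFdARE genotype on regulatory T cells (Treg) of the gut-draining mesenteric lymph nodes (mLN) departs from its effect on Treg of the joint-draining nodes (inguinal and popliteal, pooled, called joint nodes below). It rests on 11 Treg libraries of the 42 libraries in the series, chosen by sort, node and genotype: 2 from TNFdARE mLN, 3 from WT mLN, 3 from TNFdARE joint nodes and 3 from WT joint nodes. TNFdARE mice carry a Tnf gene whose transcript lacks its AU-rich element, and WT mice are their littermates. Every group, WT included, carries the DEREG transgene, and Treg were sorted on its green fluorescent reporter, which is driven by the Foxp3 promoter, so the sort follows a transgene. The libraries come from 3 independent experiments (A, B and C), and TNFdARE mLN has no library from experiment A. Zygosity, age and the number of mice behind a library are not given in the sources used here, so p-values measure only the spread between these libraries. Bulk RNA does not tell more cells that express a gene from more RNA per cell, and this holds for each result below.

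The AU-rich element normally marks Tnf mRNA for decay, and mice without it make excess TNF and develop ileitis and arthritis. Treg restrain inflammation, and lymph nodes that drain different organs imprint different programs on them: in mesenteric nodes, retinoic acid from dendritic cells induces gut-homing receptors such as Ccr9, the receptor for the chemokine of the small intestine. Effector Treg leave the resting state and gain receptors and products fitted to the tissue, among them granzyme B (Gzmb), a protease of cytotoxic granules, and proenkephalin (Penk), the precursor of opioid peptides. Stab1 encodes stabilin-1, a scavenger and adhesion receptor.

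The level of Foxp3 matched the label of the sort at both sites and in both genotypes, though its promoter also drives the sorted reporter. Foxp3, the lineage factor of Treg, stood at 1237 and 1190 CPM (counts scaled to library size) in TNFdARE mLN and at 1127, 1013 and 1022 CPM in WT mLN. It stood at 1269, 1147 and 1191 CPM in TNFdARE joint nodes and at 1317, 1149 and 1124 CPM in WT joint nodes. Its genotype effect on the log2 scale was 0.20 ± 0.09 (SE) in mLN (edgeR adjusted p = 0.22, and 0.0091 with experiment as a replicate block) and 0.01 ± 0.08 in joint nodes (adjusted p = 0.98). Of 6 identity genes (Cd3e, Cd4, Foxp3, Il2ra, Ctla4 and Ikzf2), none was called in mLN, and Il2ra was lower in TNFdARE joint nodes. With experiment as a replicate block, 3 of the 6 rose and 2 fell in mLN, and 1 fell in joint nodes. The 11 libraries held 18733723 to 30301202 counts each, with 18923 to 21065 genes detected.

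Markers of 10 other cell types were summed per library. Neutrophil markers reached at most 0.0665 CPM, and Clec9a, Ncr1, Ccl19, Ccl21a and Lyve1 were at 0 in all 11 libraries. The sum over 13 macrophage and monocyte markers was 6.48 to 7.26 CPM in TNFdARE and 3.36 to 7.77 CPM in WT mLN, and 4.69 to 10.3 CPM in TNFdARE and 4.04 to 8.14 CPM in WT joint nodes, so the genotypes overlapped. Several sums did not overlap between genotypes. With 2 or 3 libraries per group, non-overlap alone is a weak measure. The share of all genes whose groups do not overlap is not given here. The sum over 10 B cell markers went from 1040 to 1333 CPM in WT to 2096 to 2252 CPM in TNFdARE mLN, and from 800 to 823 CPM in WT to 1102 to 1284 CPM in TNFdARE joint nodes. At least 94.1% of it in each library was Ighm, the IgM heavy chain, and the other markers summed to at most 80.5 CPM. Of 7 B cell markers tested, 3 rose at both sites and 4 passed at neither. On the log2 scale Ighm rose by 0.82 in mLN and 0.53 in joint nodes, Ighd by 1.12 and 1.45, and Igkc by 2.20 and 2.52. The sum over 9 MHC class II genes, led by the invariant chain Cd74, was 490 to 542 CPM in TNFdARE and 203 to 237 CPM in WT mLN, against 374 to 478 CPM in TNFdARE and 209 to 249 CPM in WT joint nodes. Cd74 had an interaction of 0.91 ± 0.23 (adjusted p = 0.16, and 0.0093 with experiment as a replicate block). The sum over 6 endothelial markers was 113 to 121 CPM in TNFdARE and 183 to 214 CPM in WT mLN, and 172 to 194 CPM and 222 to 254 CPM in joint nodes. At least 98.3% of it in each library was Pecam1, which encodes CD31, also found on T cells, and which fell at both sites (by 0.76 ± 0.10, adjusted p = 0.00031, and by 0.38 ± 0.09, adjusted p = 0.02, in 8 of 11 fits without 1 library); the other 5 markers summed to at most 2.47 CPM. The sum over 9 dendritic cell markers was 59.3 to 76.4 CPM in TNFdARE and 93.7 to 137 CPM in WT mLN, led by Bst2, which is also in the interferon-induced list, and overlapped in joint nodes. Single members went other ways than this sum. Of the 3 dendritic cell markers tested, 1 rose (Zbtb46) and 1 fell (Bst2) in mLN, and 2 rose in joint nodes (Zbtb46 and Xcr1). Zbtb46 rose by 1.30 in mLN and 1.44 in joint nodes on the log2 scale. The sum over 5 epithelial markers did not overlap in mLN, at 29.2 to 30 CPM in TNFdARE and 20.7 to 25.4 CPM in WT. In joint nodes the sum over 5 CD8 and NK markers was 19.7 to 21.1 CPM in TNFdARE and 12 to 17.5 CPM in WT, and that over 7 plasma cell markers, at least 95% Xbp1, was 180 to 186 CPM and 188 to 203 CPM. The part of such RNA in the results below was not tested.

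Among the genes that moved alike at both sites were interferon-induced genes, and their promoters were searched for a sequence motif. Interferon-activated transcription factors bind repeats of GAAA, so each RefSeq promoter window (GRCm38.p6, 250 bases before to 50 bases after a gene's start) was searched for GAAANNGAAA on both strands; no second motif was searched. Of the 28 genes in the interferon-induced list, 21 had a window, and 12 of their 26 windows held the motif (46.2%), from 11 genes. The share was 3.44% of all 32851 promoter windows, 17% of 147 windows of genes lower at both sites, 5.37% of 298 windows of genes higher at both sites and 5.77% of 52 windows of genes whose effect differed between sites. The genes lower at both sites include 23 of the 28 list members, so the 17% is not separate from the 46.2%. The stretches below, with the motif or its reverse complement in capitals, are shown because their genes fell in Treg of both sites and they hold the motif; 10 of the 21 genes with a window do not. They are 5′ to 3′ on the gene's strand, at chr19:34640765-34640833 (plus) for Ifit1, chr19:34583353-34583436 (plus) for Ifit3, chr4:156200855-156200916 (minus) for Isg15, chr5:120907510-120907565 (minus) for Oas1a and chr12:26456543-26456592 (minus) for Rsad2.
Ifit1: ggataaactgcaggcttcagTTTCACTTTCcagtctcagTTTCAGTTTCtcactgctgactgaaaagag
Ifit3: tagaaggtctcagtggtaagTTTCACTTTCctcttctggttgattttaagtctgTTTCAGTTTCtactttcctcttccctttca
Isg15: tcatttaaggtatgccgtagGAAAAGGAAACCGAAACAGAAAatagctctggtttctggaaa
Oas1a: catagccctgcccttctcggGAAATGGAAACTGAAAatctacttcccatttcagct
Rsad2: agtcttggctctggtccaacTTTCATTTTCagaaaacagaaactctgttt
A match describes letters and is not a shown binding site.

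Both sites answered the genotype with many of the same genes. Among 15079 genes tested, 771 were higher (5.11% of those tested) and 398 lower (2.64%) in TNFdARE mLN Treg, and 605 were higher (4.01%) and 290 lower (1.92%) in TNFdARE joint-node Treg, at an adjusted p below 0.05. The 2 sites shared 472 calls in the same direction, which is 40.4% of the mLN calls and 52.7% of the joint-node calls. Genes called at 1 site mostly had the same sign at the other: 92.6% of the mLN calls in joint nodes and 94.4% of the joint-node calls in mLN, against 70% of all genes. Across 9025 genes with a mean of at least 3 on the log2 CPM scale, the 2 effects had r = 0.696; genes are not independent replicates, and libraries of the 2 sites share experiments. With experiment as a replicate block the calls rose to 2443 in mLN and 2046 in joint nodes. Leaving out a library gave 508 (without TNFdARE B) to 1207 calls in mLN and 386 (without TNFdARE A) to 974 in joint nodes; the count fell more than 1.5 times also without WT B in mLN (707) and without TNFdARE B (556), TNFdARE C (577), WT B (414) or WT C (560) in joint nodes.

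A total of 53 genes (0.351% of those tested) passed the test of the difference between sites. For 36 of them (0.239%) the interaction, the mLN effect minus the joint-node effect, was above 0, and for 17 (0.113%) it was below 0. By site, 28 were called in mLN and not in joint nodes, 11 in joint nodes and not in mLN, 10 at both sites in the same direction and 4 at both sites in opposite directions. The highest group mean lay in TNFdARE mLN for 35 of the 36 and in TNFdARE joint nodes for 12 of the 17. These genes were picked by an interaction fitted to the same libraries, so both counts follow in part from the selection. No share over all genes is given beside them. All 53 had the same sign within experiment B and within experiment C, which hold the libraries of the test itself. The count depended on the spread allowed for: it was 154 with experiment as a replicate block and 1 (Gzmb) from experiments B and C alone.

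Library B of TNFdARE mLN weighed on this count. It was above library C for 33 of the 36 genes, for 76.4% of all genes higher in TNFdARE mLN and for 50.7% of all genes tested. Without library B, 10 genes passed and 43 of the 53 did not; without library C, 107 genes passed. Leaving out any of 7 other libraries moved the count more than 1.5 times: 26, 21 and 31 without TNFdARE joint-node libraries A, B and C, 31, 22 and 33 without WT joint-node A, B and C, and 31 without WT mLN B. The 9 genes that passed in every fit without 1 library were Gzmb, Penk, Arnt2, Adam8, Ccr2, Lgmn, Serpina3g, Dgat2 and Cavin1. With all 22 node libraries in the fit 4 of these lost the call: Adam8 (adjusted p = 0.17), Cavin1 (0.14), Arnt2 (0.1) and Dgat2 (0.078).

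**Figure D1:**
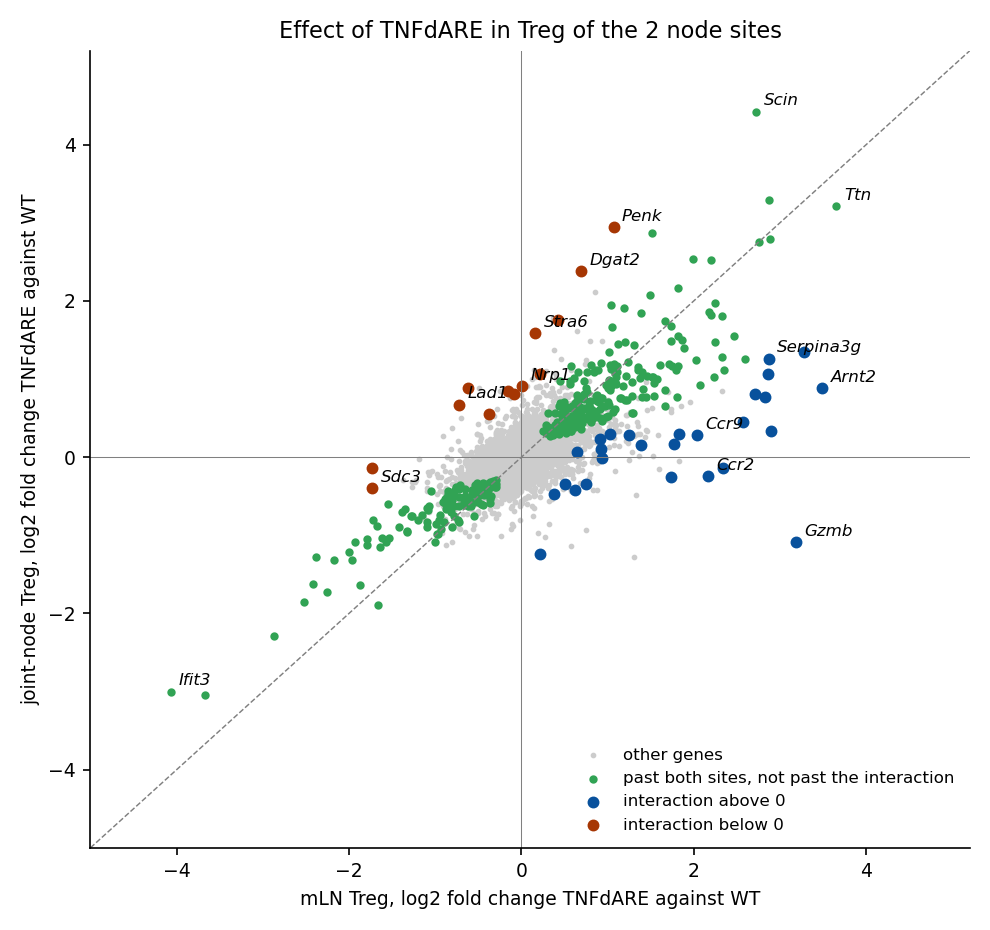
Each point is a gene with a mean of at least 3 on the log2 CPM scale, placed by its log2 fold change (TNFdARE against WT) in mLN Treg (x axis) and joint-node Treg (y axis), with the dashed line where both are equal. Green points passed at both sites in the same direction without a site difference, blue points had an interaction above 0 and brown points below 0; Gzmb lies at the lower right and Penk and Dgat2 lie above the line.

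Granzyme B gave the largest site difference among genes with a mean log2 CPM of at least 3. Gzmb (ENSMUSG00000015437, chr14:56258838-56262260 on the minus strand, GRCm38) was at 181 and 88.6 CPM in TNFdARE mLN and at 18.8, 13.6 and 12.2 CPM in WT mLN. In joint nodes it was at 14.5, 12.6 and 13.1 CPM in TNFdARE and at 26.5, 28.5 and 30.7 CPM in WT. The genotypes did not overlap at either site, but they were ordered in opposite ways. The effect was 3.18 ± 0.24 (SE) on the log2 scale in mLN, a 9.04-fold rise (edgeR quasi-likelihood adjusted p = 5.2e-06), and −1.09 ± 0.22 in joint nodes, where TNFdARE was 2.13-fold lower (adjusted p = 0.011). The interaction was 4.27 ± 0.33 (adjusted p = 8.2e-05) and passed in all 11 fits without 1 library and in experiments B and C alone.

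Ccr9 rose in mLN and was not called in joint nodes. Ccr9 (ENSMUSG00000029530, chr9:123678439-123784330, plus strand) was at 285 and 190 CPM in TNFdARE mLN and at 54.1, 48.1 and 71.5 CPM in WT mLN. In joint nodes it was at 12.1, 17.7 and 16 CPM in TNFdARE and at 12.8, 14.1 and 10.6 CPM in WT, so those groups overlapped. The mLN effect was a 4.11-fold rise (log2 2.04 ± 0.20, adjusted p = 3.2e-05), the joint-node effect 0.28 ± 0.20 (adjusted p = 0.47) and the interaction 1.76 ± 0.28 (adjusted p = 0.017). The interaction's adjusted p was 0.069 without library B of WT joint nodes and 0.097 without library B of TNFdARE mLN. Within experiments the interaction, on log2(CPM + 2), was 2.23 in B and 0.87 in C.

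Penk rose at both sites, and more in joint nodes. Penk (ENSMUSG00000045573, chr4:4133531-4138819, minus strand) was at 131 and 115 CPM in TNFdARE mLN and at 64.4, 53.1 and 58.9 CPM in WT mLN. In joint nodes it was at 352, 263 and 300 CPM in TNFdARE and at 42, 32.1 and 45.5 CPM in WT. No groups overlapped within a site. The rise was 2.1-fold in mLN (log2 1.07 ± 0.15, adjusted p = 0.00045) and 7.66-fold in joint nodes (log2 2.94 ± 0.14, adjusted p = 2.2e-07), and the interaction was −1.87 ± 0.20 (adjusted p = 0.0028).

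Stab1 rose at both sites with no call for a difference between them. Stab1 (ENSMUSG00000042286, chr14:31139013-31168641, minus strand) was at 90.8 and 57.4 CPM in TNFdARE mLN and at 3.97, 4.16 and 4.22 CPM in WT mLN. In joint nodes it was at 8.68, 10.9 and 7.39 CPM in TNFdARE and at 0.133, 0.385 and 0.414 CPM in WT. In each genotype the mLN libraries lay above the joint-node libraries. The rise was 18-fold in mLN (log2 4.17 ± 0.24, adjusted p = 6.4e-07) and 29-fold in joint nodes (log2 4.86 ± 0.32, adjusted p = 1.3e-06). The interaction was −0.69 ± 0.43 (adjusted p = 0.86), with a 95% interval of −1.53 to 0.16. Its sign rests on the low WT joint-node values: with 2 CPM added to every value it was 1.48 in experiment B and 1.30 in experiment C.

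**Figure D2:**
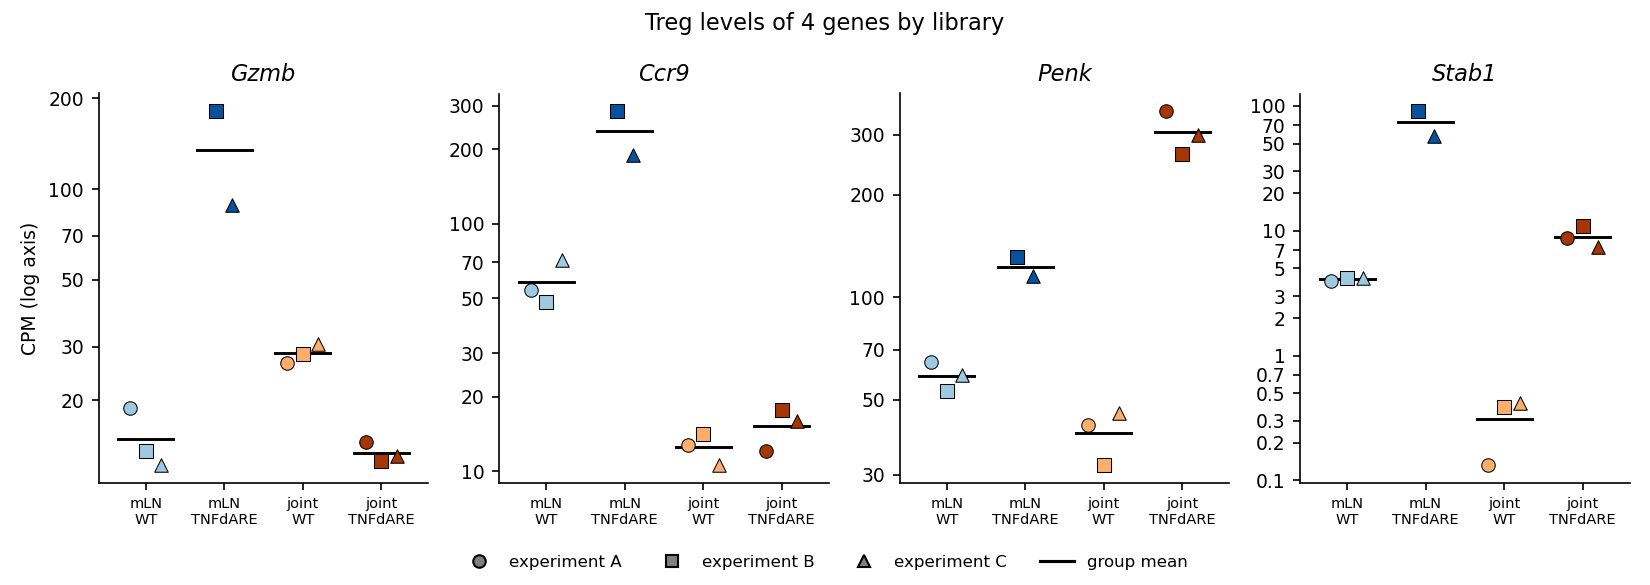
CPM of Gzmb, Ccr9, Penk and Stab1 on log axes in the 11 Treg libraries, with 1 symbol per library (shape by experiment) and a black line at each group mean. Gzmb is highest in TNFdARE mLN, Ccr9 separates the genotypes in mLN, Penk is highest in TNFdARE joint nodes, and Stab1 is higher in TNFdARE at both sites.

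Of 11 receptors for inflammatory chemokines tested, 6 rose in mLN and 2 in joint nodes, 4 passed at neither site, none fell, and the list's median effect was 1.04 in mLN and 0.37 in joint nodes, where the median over all genes was 0.00 and −0.01. Ccr2, the receptor that guides monocytes and effector T cells to inflamed tissue, was at 675 and 379 CPM in TNFdARE mLN and at 133, 118 and 102 CPM in WT mLN. In joint nodes it was at 82.4, 64.8 and 50.4 CPM in TNFdARE and at 71.9, 85.6 and 75.6 CPM in WT, which overlapped. The mLN rise was 4.48-fold (log2 2.16 ± 0.22, adjusted p = 4.8e-05) and the interaction 2.40 ± 0.30 (adjusted p = 0.0042). Ccr3 had an interaction of 2.36 ± 0.47 (adjusted p = 0.053), which passed with experiment as a replicate block (0.021). With that block 3 of the 11 passed the interaction, and 7 rose in mLN and 4 in joint nodes. Over all 15079 genes the block called 154 for the interaction, 2443 in mLN and 2046 in joint nodes. In the main fit 5.11% of all genes rose and 2.64% fell in mLN, and 4.01% rose and 1.92% fell in joint nodes. These shares stand beside the counts of each list below. Ccr8, a chemokine receptor found on tissue Treg, rose at both sites, with log2 effects of 1.04 ± 0.17 in mLN and 0.91 ± 0.15 in joint nodes.

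Among 12 genes of mucosal homing and retention, 5 rose and 1 fell in mLN, and 4 rose and 1 fell in joint nodes (7 and 6 rose with the replicate block). Cxcr6, a receptor of resident T cells, had an interaction of 2.06 ± 0.35 (adjusted p = 0.025), from 177 and 84.6 CPM in TNFdARE against 22.4, 14.6 and 18.3 CPM in WT mLN, and 20.4, 20.7 and 14.9 CPM against 10.8, 11.2 and 10.8 CPM in joint nodes. It passed in 3 of 11 fits without 1 library and reached 0.097 without library B of TNFdARE mLN. Itgae, the alpha chain of the integrin that binds epithelial cadherin, rose at both sites: 1345 and 1044 CPM against 350, 252 and 366 CPM in mLN, and 902, 707 and 712 CPM against 304, 289 and 284 CPM in joint nodes. Gpr15, a receptor for homing to the colon, rose by 1.99 ± 0.19 in mLN and 2.53 ± 0.19 in joint nodes, and Ccr6 by 2.33 ± 0.15 and 1.80 ± 0.14. Ccr10, a skin-homing receptor, fell at both sites, from 11.9, 10.4 and 7.45 CPM in WT to 1.4, 1.47 and 1.45 CPM in TNFdARE joint nodes, with at most 0.877 CPM in any mLN library.

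Several proteases, a protease inhibitor and a lipid carrier had the larger effect in mLN Treg. Lgmn, the lysosomal protease legumain, was at 231 and 131 CPM in TNFdARE and at 28.7, 28.5 and 34.2 CPM in WT mLN, against 34.5, 28.2 and 25.9 CPM and 23.1, 19.5 and 22.1 CPM in joint nodes, with an interaction of 2.12 ± 0.26 (adjusted p = 0.0042). Adam8, a membrane metalloprotease, was at 127 and 60.8 CPM in TNFdARE and at 12, 13.5 and 12.2 CPM in WT mLN, against 15, 13.8 and 12.5 CPM and 10.7, 10.9 and 11.2 CPM in joint nodes (interaction 2.57 ± 0.30, adjusted p = 0.0037). Mmp9, a secreted gelatinase, had an interaction of 1.98 ± 0.33 (adjusted p = 0.021), which passed in 7 of 11 fits without 1 library and reached 0.15 without library B of TNFdARE mLN. Serpina3g, a protease inhibitor, rose at both sites and more in mLN: 1064 and 784 CPM against 137, 100 and 143 CPM in mLN (7.3-fold), and 169, 152 and 155 CPM against 61, 60.5 and 76.8 CPM in joint nodes (2.39-fold), with an interaction of 1.61 ± 0.22 (adjusted p = 0.0073). Serpina3g has a near-identical neighbour, Serpina3f (interaction 1.85 ± 0.33), and reads could be split between them. Fabp5, a fatty acid carrier, also rose at both sites, with an interaction of 1.90 ± 0.29 (adjusted p = 0.014, and 0.052 and 0.089 without library B of TNFdARE joint nodes or of TNFdARE mLN). Its joint-node call was lost in 4 of 11 such fits, at most 0.13.

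Arnt2, Havcr2, Fgl2 and Frmd5 also had the larger effect in mLN. Arnt2, a partner of bHLH-PAS transcription factors, was at 94.9 and 50 CPM in TNFdARE and at 6.51, 5.32 and 7.63 CPM in WT mLN, and at 23, 19.5 and 16.3 CPM in TNFdARE and 8.98, 9.62 and 13.5 CPM in WT joint nodes (interaction 2.61 ± 0.35, adjusted p = 0.0072). Its joint-node rise was 0.88 ± 0.24 (adjusted p = 0.043) and passed in 5 of 11 fits without 1 library, at most 0.18 without library A of TNFdARE or B of WT joint nodes. Havcr2, the co-inhibitory receptor TIM-3, was at 69.5 and 38.5 CPM in TNFdARE and at 11.7, 10.6 and 9.55 CPM in WT mLN, and between 5.49 and 10.6 CPM in all 6 joint-node libraries (interaction 2.49 ± 0.37, adjusted p = 0.011, and 0.089 without library B of TNFdARE mLN). Havcr2 was the only 1 of 12 co-inhibitory receptors past the interaction, and Tigit rose and Cd200 fell in mLN. Fgl2, a secreted suppressive product of Treg, had an interaction of 1.54 ± 0.28 (adjusted p = 0.03, passed in 2 of 11 fits without 1 library, at most 0.13). Frmd5 had an interaction of 1.94 ± 0.37 (adjusted p = 0.048), which passed in 1 of 11 such fits and reached 0.29 without library B of TNFdARE mLN.

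Genes with the larger effect in joint nodes were fewer. Dgat2, an enzyme of triglyceride synthesis, was at 76.5, 70.7 and 64 CPM in TNFdARE and at 13.5, 12 and 15.2 CPM in WT joint nodes, and at 15.4 and 19 CPM in TNFdARE and 12.2, 9.87 and 9.87 CPM in WT mLN. It rose 5.19-fold in joint nodes and 1.62-fold in mLN (the latter adjusted p = 0.0099, and 0.12 without library C of TNFdARE mLN), and the interaction was −1.68 ± 0.20 (adjusted p = 0.0037). Nrp1, neuropilin-1, a surface marker of thymus-derived Treg, was at 651, 654 and 675 CPM in TNFdARE and at 344, 344 and 366 CPM in WT joint nodes, a rise of 0.91 ± 0.10 (adjusted p = 0.00014). In mLN it was at 338 and 453 CPM in TNFdARE and at 375, 379 and 428 CPM in WT, which overlapped. Its interaction was −0.90 ± 0.15 (adjusted p = 0.024), passed in 5 of 11 fits without 1 library and reached 0.097 without library B of TNFdARE mLN.

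Of 11 genes in the retinoic acid list, 2 passed the interaction, which 0.351% of all genes tested did. Of the 11, 9 had the same sign at both sites, against 70% of all genes, and 7 passed at neither site. Ccr9 was the member with the larger mLN effect, and Rarg, a retinoic acid receptor, the member with the larger joint-node effect. Rarg was at 140, 123 and 103 CPM in TNFdARE and at 72.1, 69.9 and 62.4 CPM in WT joint nodes, and at 51.6 and 46.6 CPM in TNFdARE and 55.3, 54.1 and 55.1 CPM in WT mLN, with an interaction of −1.0 ± 0.16 (adjusted p = 0.017). Its adjusted p was 0.057, 0.056 and 0.082 without library B of TNFdARE joint nodes, of WT joint nodes or of TNFdARE mLN. Stra6, a receptor for the retinol carrier and not a list member, was at 19.8, 23.2 and 17.3 CPM in TNFdARE and at 7.69, 5.39 and 6.88 CPM in WT joint nodes, and between 26 and 33.6 CPM in all 5 mLN libraries, with an interaction of −1.43 ± 0.23 (adjusted p = 0.017). Without library B of TNFdARE joint nodes or of TNFdARE mLN its adjusted p was 0.053 and 0.12. Dhrs3, which reduces retinal, and Tgm2, transglutaminase 2, rose at both sites, by 1.71 ± 0.21 and 1.22 ± 0.25 in mLN and by 1.19 ± 0.23 and 1.71 ± 0.25 in joint nodes. Without 1 library the adjusted p reached 0.05 for Dhrs3 in joint nodes (WT B) and 0.079 for Tgm2 in mLN (TNFdARE C). In all, 3 of the 11 rose at each site and none fell, where 5.11% of all genes rose in mLN and 4.01% in joint nodes.

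**Figure D3:**
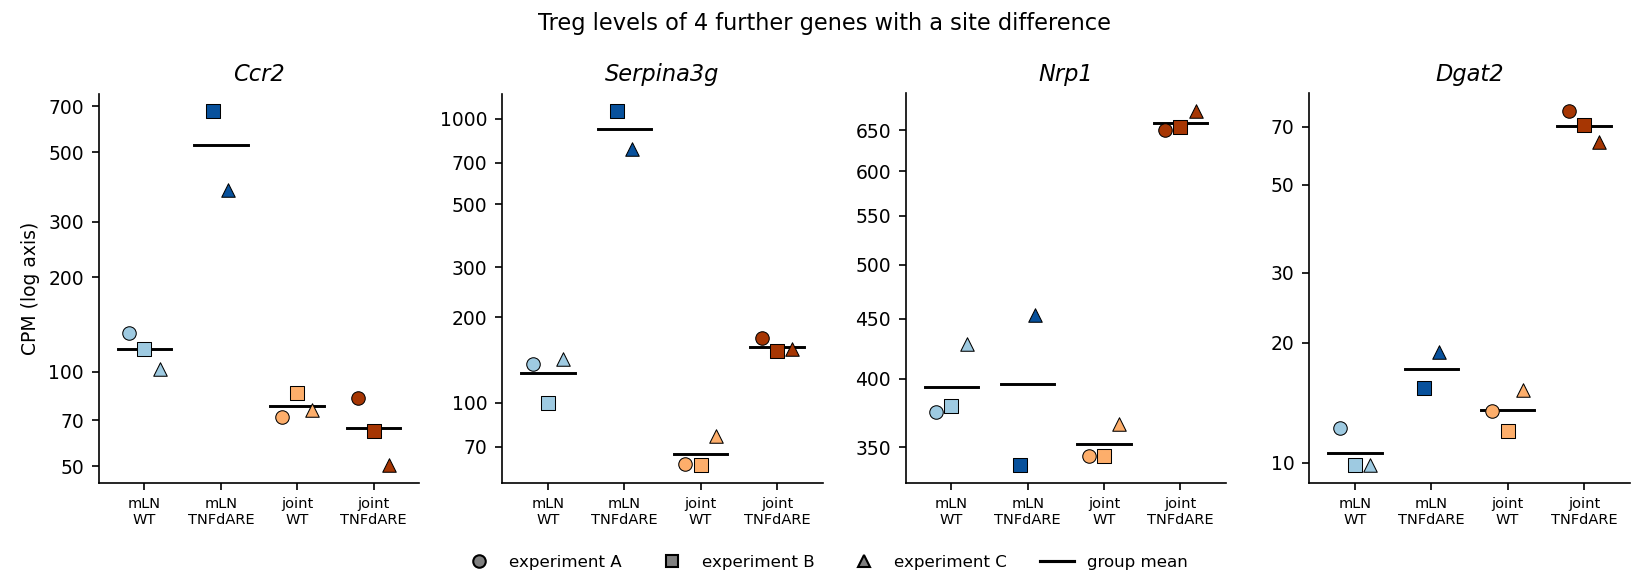
CPM of Ccr2, Serpina3g, Nrp1 and Dgat2 on log axes in the 11 Treg libraries, with 1 symbol per library (shape by experiment) and a black line at each group mean. Ccr2 separates the genotypes in mLN and overlaps in joint nodes, Serpina3g separates them at both sites with the wider gap in mLN, and Nrp1 and Dgat2 are highest in TNFdARE joint nodes.

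Smaller groups of genes complete the site differences. Colq (interaction −1.34 ± 0.21), Wnt3, a secreted signalling protein (−1.50 ± 0.24), and Capn3, a calcium-dependent protease (−0.93 ± 0.18), rose in joint nodes and were not called in mLN. Sdc3, a heparan sulfate proteoglycan (−1.34 ± 0.23), and Pla2g4f, a phospholipase (−1.59 ± 0.31), fell in mLN and were not called in joint nodes. Their adjusted p-values were 0.017 for Colq, 0.018 for Wnt3, 0.044 for Capn3, 0.027 for Sdc3 and 0.049 for Pla2g4f, and they passed in 8, 7, 1, 3 and 1 of 11 fits without 1 library. The highest adjusted p was 0.095, 0.12, 0.27 and 0.15 without library B of TNFdARE mLN for Colq, Wnt3, Capn3 and Sdc3, and 0.14 without library B of TNFdARE joint nodes for Pla2g4f.

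Besides Gzmb, 3 genes passed at both sites in opposite directions. Lad1, a basement membrane anchor protein, was lower in TNFdARE mLN, at 36.4 and 38.7 CPM against 58.4, 76.6 and 49.8 CPM, and higher in TNFdARE joint nodes, at 120, 103 and 110 CPM against 71.1, 72.2 and 66.6 CPM. Its interaction was −1.38 ± 0.19 (adjusted p = 0.0088, and 0.082 without library B of TNFdARE mLN, which also took its mLN fall to 0.086). Ikzf3, the Ikaros-family factor Aiolos, was higher in TNFdARE mLN, at 320 and 271 CPM against 234, 209 and 239 CPM, and lower in TNFdARE joint nodes, at 122, 112 and 132 CPM against 153, 176 and 178 CPM. Its interaction was 0.84 ± 0.15 (adjusted p = 0.027), passed in 4 of 11 fits without 1 library and reached 0.17 without library B of TNFdARE mLN. The mLN rise of Ikzf3 (0.38 ± 0.11, adjusted p = 0.05 as rounded) passed in 2 of 11 such fits and the joint-node fall (−0.47 ± 0.10) in 8. Rgs9bp stayed under 1 CPM in every library, at 0.438 and 0.597 CPM in TNFdARE and 0, 0.0332 and 0 CPM in WT mLN, with the reverse order in joint nodes, so its fitted interaction of 9.41 depends on the fit's handling of zeros and gives no fold.

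Interferon-induced genes fell in Treg of both sites. All 28 members of the list were lower in TNFdARE at both sites, 27 of them past the test in mLN and 23 in joint nodes (25 with the replicate block), with a median of −1.66 in mLN and −1.04 in joint nodes. None of the 28 passed the edgeR test of a site difference, with or without experiment as a replicate block. Ifit1, an antiviral RNA-binding protein, was at 31.6 and 38.5 CPM in TNFdARE and at 312, 308 and 147 CPM in WT mLN, and at 20.7, 18.2 and 13.4 CPM in TNFdARE and 74.6, 72.9 and 108 CPM in WT joint nodes. Ifit3 was at 5.13 and 9.24 CPM against 158, 142 and 59.7 CPM in mLN, and at 6.46, 3.9 and 3.24 CPM against 33, 31.2 and 45.5 CPM in joint nodes; it has a near-identical copy, Ifit3b. Irf7, a transcription factor of the interferon response, fell by 1.79 ± 0.22 on the log2 scale in mLN and by 1.05 ± 0.19 in joint nodes, and Usp18, a brake on interferon receptor signalling, fell by 2.42 ± 0.24 and 1.63 ± 0.21.

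The WT libraries of experiment C stood apart in this list. Among the 3 WT libraries of a site, library C was the lowest for 27 of the 28 genes in mLN and the highest for 27 of 28 in joint nodes. The interaction on log2(CPM + 2) was below 0 for all 28 genes in experiment B (median −0.86) and for 2 in experiment C (median 0.22). The sign of the site difference in this list thus differed between the 2 experiments that hold all 4 groups.

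**Figure D4:**
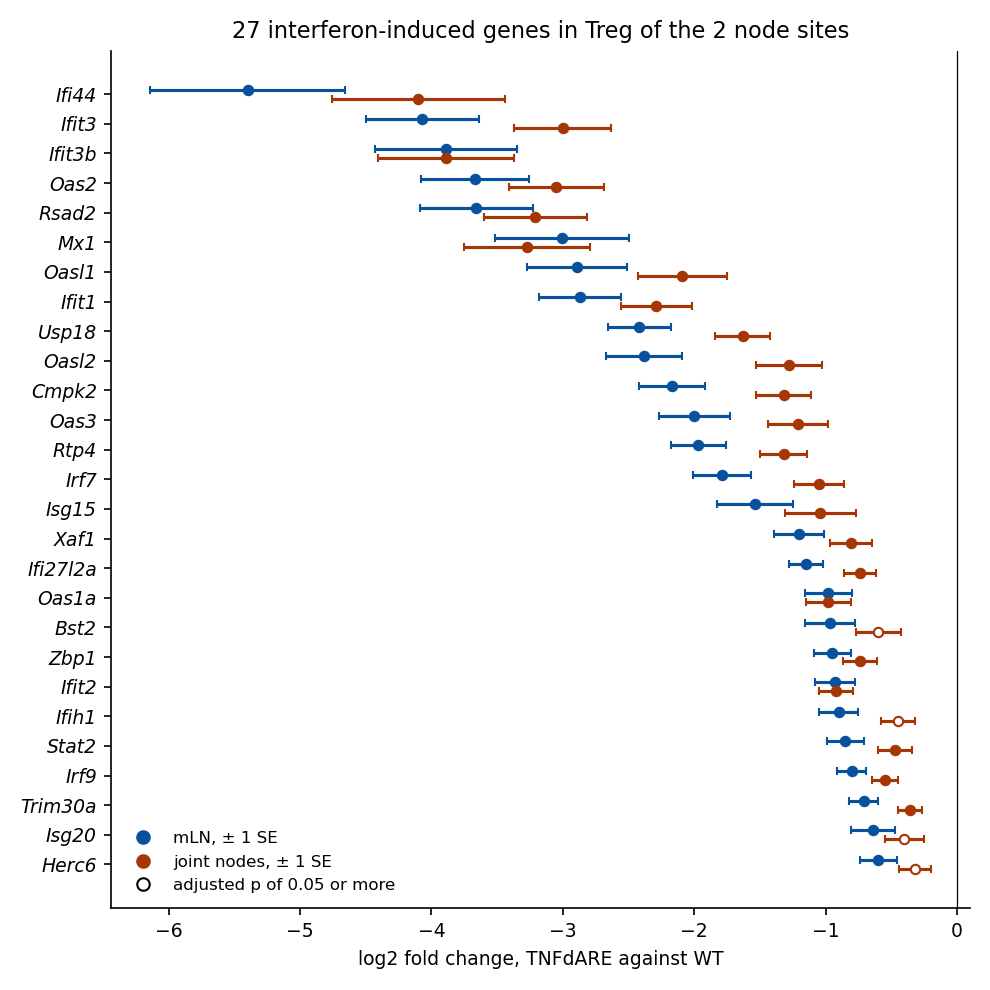
Log2 fold changes (x axis, TNFdARE against WT, ± 1 SE) of the 27 interferon-induced genes past the test in mLN, in mLN Treg (blue) and joint-node Treg (brown), with open circles for an adjusted p of 0.05 or more. All points lie below 0, and all 27 of the mLN and 23 of the joint-node points are filled.

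In total 462 genes changed in the same direction at both sites without a call for a site difference, 319 higher (2.12% of those tested) and 143 lower (0.948%). Their count was 1047 with experiment as a replicate block. It was 245, 258 and 288 without TNFdARE joint-node A, WT joint-node B or TNFdARE mLN B, and 157 from experiments B and C alone. The median change of the higher genes was 1.00 in mLN and 0.88 in joint nodes, and 201 of them had the larger value in mLN. The medians of the lower genes were −0.85 and −0.62, with the larger fall in mLN for 112.

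Il1r2, the decoy receptor for interleukin-1, rose at both sites. It was at 252 and 173 CPM in TNFdARE and at 33.4, 20.2 and 33.4 CPM in WT mLN, and at 231, 170 and 149 CPM in TNFdARE and 23.1, 27.8 and 28.9 CPM in WT joint nodes. The effects were 2.88 ± 0.23 and 2.79 ± 0.22, and the interaction was 0.10 ± 0.31 (adjusted p = 1). The list of 9 interleukin-1 family genes holds receptors and their subunits and Il1rn, the secreted receptor antagonist, which rose at both sites. Of the 9, 6 rose and 1 fell in mLN and 5 rose in joint nodes, among them the receptor genes Il18r1, Il18rap and Il1rl1, the IL-33 receptor.

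Further genes with large shared rises were Ttn, which encodes titin, a giant muscle protein, Dscam, a neuronal adhesion molecule, Scin, an actin-severing protein, and Bhlhe40, a transcription factor of activated T cells. Ttn was at 763 and 517 CPM against 44.4, 56.5 and 51.9 CPM in mLN and at 291, 427 and 375 CPM against 19.3, 50.9 and 47.9 CPM in joint nodes. Scin was at 23 and 21.4 CPM against 3.09, 2.83 and 4.27 CPM in mLN and at 58.3, 53 and 47.7 CPM against at most 3.62 CPM in joint nodes, with an interaction of −1.70 ± 0.39 (adjusted p = 0.12). Dscam rose by 2.87 ± 0.22 in mLN and 3.29 ± 0.19 in joint nodes, and Bhlhe40 by 2.24 ± 0.34 and 1.97 ± 0.31. Asb2, part of a ubiquitin ligase, rose by 2.76 ± 0.27 and 2.75 ± 0.43 from levels that differed between sites, 31.7 to 37.5 CPM in WT mLN and 0.362 to 1.06 CPM in WT joint nodes. Actg2, a smooth muscle actin, rose by 1.51 ± 0.21 and 2.87 ± 0.20, and its interaction of −1.36 ± 0.29 (adjusted p = 0.081) passed with experiment as a replicate block (0.016). With Stab1, the receptors Axl and Vcam1 rose at both sites: Axl by 1.49 ± 0.13 and 2.08 ± 0.13, and Vcam1 by 2.86 ± 0.34 and 5.41 ± 0.36. The interaction of Vcam1 was −2.56 ± 0.50 (adjusted p = 0.051, and 0.021 with the replicate block).

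Of the 14 genes of type 17 T cells, 11 were tested. All 11 rose in mLN, and 8 rose in joint nodes (10 with the replicate block), with medians of 2.50 and 1.14, while Il17a, Il17f and Il22 were too low to test. Il23r, a subunit of the interleukin-23 receptor, was at 28.7 and 17.8 CPM against 5.05, 3.16 and 4.16 CPM in mLN and at 2.89, 2.12 and 2.89 CPM against 0.756, 0.674 and 1.19 CPM in joint nodes. It rose by 2.50 ± 0.28 in mLN (adjusted p = 0.0001) and by 1.59 ± 0.31 in joint nodes (adjusted p = 0.0078, and 0.051 without library B of WT). Ltb4r1, the leukotriene B4 receptor, and Tmem176a, a membrane protein, had the larger effect in mLN, with interactions of 2.46 ± 0.43 and 1.57 ± 0.28 (both adjusted p = 0.027). Each passed in 4 of 11 fits without 1 library and reached 0.15 and 0.2 without library B of TNFdARE mLN.

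Effector and core Treg genes moved in part. Of 20 effector Treg genes, 12 rose in mLN and 9 in joint nodes (16 and 10 with the replicate block), none fell, and 5 were shared, among them Batf, at 163 and 133 CPM against 94, 83.4 and 93.1 CPM in mLN and at 92.4, 81 and 83.8 CPM against 48.9, 50.5 and 55.1 CPM in joint nodes. Prdm1, the factor Blimp-1, was at 260 and 148 CPM against 91.9, 73 and 72.9 CPM in mLN and at 62.7, 50.5 and 42.5 CPM against 48.4, 50.7 and 56.3 CPM in joint nodes, with an interaction of 1.36 ± 0.27 (adjusted p = 0.059, and 0.012 with the replicate block). Icos and Areg also passed the interaction only with the block (0.046 and 0.011). Of 15 core genes, 2 rose and 2 fell in mLN and 5 rose and 1 fell in joint nodes, and Nrp1 was the member past the interaction. Among all genes tested 5.11% rose and 2.64% fell in mLN, and 4.01% rose and 1.92% fell in joint nodes. With the replicate block 5 core genes rose and 5 fell in mLN, and 5 rose and 3 fell in joint nodes. That block called 2443 of all 15079 genes in mLN and 2046 in joint nodes. Ikzf4, an Ikaros-family factor, passed the interaction with the block beside Nrp1.

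Of 14 genes of naive cells and node retention, 8 fell and 1 rose in mLN and 2 fell in joint nodes (11 and 5 lower with experiment as a replicate block), and 10 were lower in TNFdARE at both sites. None passed the interaction. S1pr1, the receptor for exit from the node, fell by 0.58 ± 0.10 in mLN and was at −0.27 ± 0.09 in joint nodes (adjusted p = 0.089, and 0.025 with the replicate block). Il7r was the exception that rose, to 744 and 993 CPM from 254, 226 and 308 CPM in mLN, with an interaction of 1.12 ± 0.26 (adjusted p = 0.12, and 0.0012 with the block).

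Tnf itself rose in mLN and was not called in joint nodes. It was at 116 and 61.6 CPM in TNFdARE and at 42.9, 46.3 and 29.7 CPM in WT mLN, and at 117, 114 and 83.6 CPM in TNFdARE and 84.4, 93.2 and 58.4 CPM in WT joint nodes, where the genotypes overlapped. The rise was 1.16 ± 0.26 in mLN (adjusted p = 0.014, and 0.25 without library B of TNFdARE mLN) and the joint-node effect 0.42 ± 0.23 (adjusted p = 0.34). Its interaction was 0.75 ± 0.35 (adjusted p = 0.7). With experiment as a replicate block the joint-node effect and the interaction passed as well (0.0043 and 0.011). The counts do not check the deletion, since reads outside the deleted element count alike. Of 23 TNF and NF-kB genes, 8 rose and 1 fell in mLN and 6 rose and 1 fell in joint nodes, 5 of them shared: Ltb, Tnfrsf1b, Nfkb2, Relb and Nfkbie. Tnfrsf1b, the TNF receptor favoured by Treg, was at 1550 and 977 CPM against 710, 595 and 622 CPM in mLN and at 720, 653 and 619 CPM against 470, 428 and 498 CPM in joint nodes, where its rise (adjusted p = 0.046) passed in 4 of 11 fits without 1 library and reached 0.19 without library B of WT. None passed the interaction, and Tnf and Icam1 did with the replicate block. That block gave 12 higher and 2 lower genes in mLN, and 8 higher and 3 lower in joint nodes. Of the 23 genes, 21 had the same sign at both sites in the main fit, against 70% of all genes.

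Among 12 granzyme and cytotoxicity genes, 3 rose in mLN, 3 rose and 1 fell in joint nodes, and 3 passed the interaction: Gzmb, Serpina3g and Ctsw. For this list and the GTPases below, the shares over all genes tested were 5.11% higher and 2.64% lower in mLN. In joint nodes they were 4.01% and 1.92%. Ctsw, cathepsin W, was at 456, 427 and 423 CPM in TNFdARE and at 236, 266 and 244 CPM in WT joint nodes and overlapped in mLN, at 233 and 242 CPM against 247, 296 and 215 CPM. Its interaction was −0.90 ± 0.16 (adjusted p = 0.027, passed in 4 of 11 fits without 1 library, at most 0.16). Prf1, perforin, lay between 6.39 and 11.6 CPM in all 11 libraries with no call. Of 14 guanylate-binding proteins and immunity GTPases, 1 rose and 3 fell in mLN and 7 fell in joint nodes. Gbp3 was the 1 that rose, with an interaction of 0.58 ± 0.11 (adjusted p = 0.036) that passed in none of the 11 fits without 1 library; members of this family are similar enough to share reads.

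The remaining lists differed in their share of calls. Over all genes tested, 5.11% rose and 2.64% fell in mLN, and 4.01% rose and 1.92% fell in joint nodes. Of 12 type 1 genes, 4 rose at each site. Of 10 follicular genes, 2 rose and 1 fell in mLN and 3 rose and 1 fell in joint nodes. Of 14 genes of the TGF-beta axis, 1 rose and 2 fell in mLN and 1 rose in joint nodes, and of 5 genes of enkephalin and its processing, 3 rose in mLN and 1 in joint nodes. None of 20 proliferation genes passed at either site, with medians of 1.01 and 0.26, and 8 passed in mLN and 1 in joint nodes with experiment as a replicate block. None of 18 immediate early and heat shock genes passed, while with the block 6 rose in mLN and 1 fell in joint nodes. Fos was at 1183 and 11.6 CPM in libraries B and C of TNFdARE mLN and at 621, 94.4 and 13.4 CPM in WT mLN, with the lowest value of each group in experiment C. The replicate block called 2443 of all 15079 genes in mLN and 2046 in joint nodes. With it 4 of 12 co-inhibitory receptors rose and 2 fell in mLN, and 2 rose in joint nodes. Of the 14 genes of the TGF-beta axis, 2 rose and 2 fell in mLN and 4 rose in joint nodes. Of the 14 GTPases, 1 rose and 5 fell in mLN and 9 fell in joint nodes. Of the 5 enkephalin genes, 2 rose in joint nodes. The block added Cpe, Srgn, Gbp8 and Il12rb1 to the list members past the interaction.

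Conventional CD4 T cells (Tconv) sorted on the same reporter from the same nodes gave a second measure of the same contrast. None of 16234 genes passed the interaction in the 11 node Tconv libraries by edgeR, with 482 at an unadjusted p below 0.05, and DESeq2 called 12. These libraries come from the same experiments A to C. All 53 Treg genes were tested there. For 48 of them the sign was the same as in Treg, against 56.3% of the 14284 genes tested in both cell types, and 21 had an unadjusted p below 0.05, 20 of these with the same sign. Penk had an interaction of −3.21 ± 0.51 in Tconv (unadjusted p = 3.1e-05, adjusted p = 0.25) and Nrp1 of −1.23 ± 0.17 (unadjusted p = 7.9e-06, adjusted p = 0.13). Ccr9 had 0.94 ± 0.27 and Gzmb 0.65 ± 0.84.

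The difference between Treg and Tconv in the interaction was itself tested and passed for none of 17108 genes, with 524 at an unadjusted p below 0.05 and 12 called by DESeq2. Serpina3g came nearest among the named genes, at 2.19 ± 0.40 (adjusted p = 0.19, and 0.049 with experiment as a replicate block). Foxp3 in Tconv moved with genotype: 22.1 and 36.9 CPM in TNFdARE against 7.38, 6.48 and 6.68 CPM in WT mLN, and 36.2, 29.3 and 40.1 CPM against 6.61, 6.61 and 7.46 CPM in joint nodes. As a share of the Treg level this is 2.43% and 2.93% in TNFdARE and 0.65% and 0.576% in WT. The part of Treg RNA in the Tconv values was not tested.

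**Figure D5:**
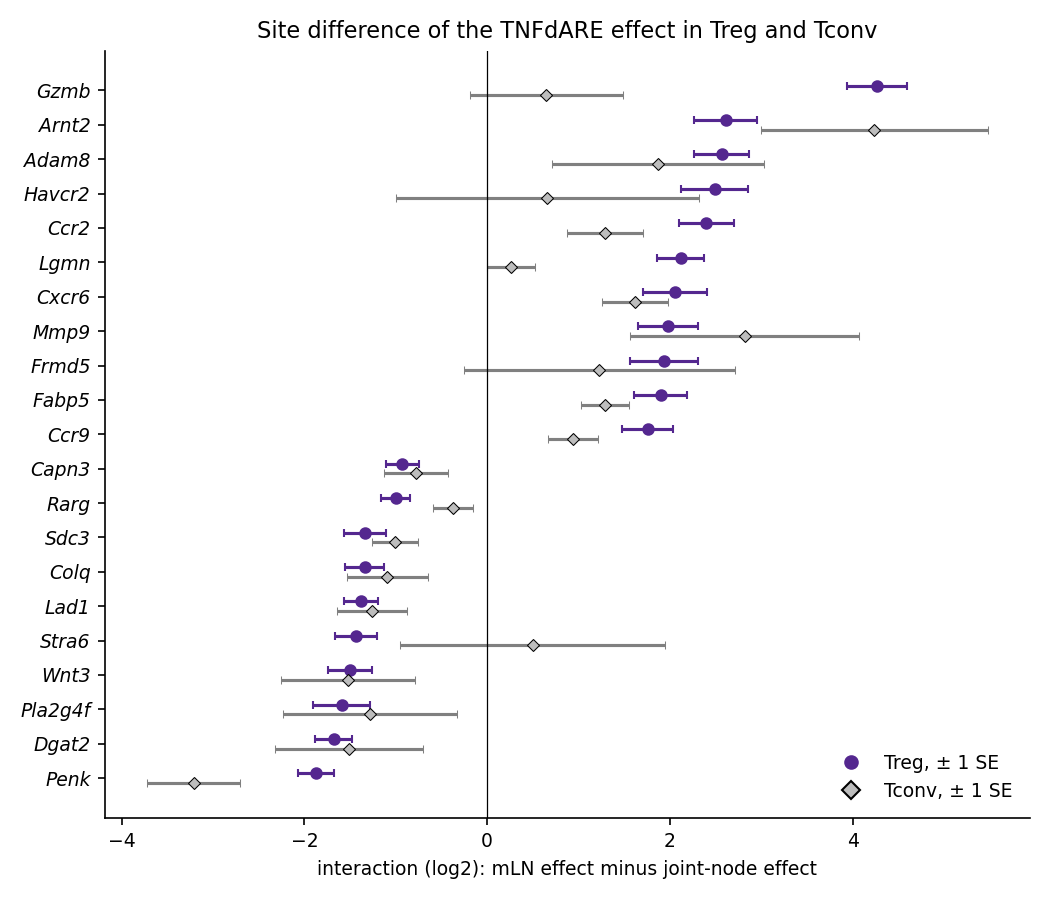
Interaction (x axis, log2, mLN effect minus joint-node effect, ± 1 SE) of 21 genes in Treg (purple circles) and in Tconv (grey diamonds). In Treg 11 genes lie above 0 and 10 below, Gzmb is at 4.27 in Treg and 0.65 in Tconv, and Stra6 is at −1.43 in Treg and 0.50 in Tconv.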

How the data were processed

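Treg RNA was extracted with the RNeasy Micro kit, turned into full-length cDNA with SMART-Seq v4 PLUS from 1 of 2 input amounts (which library got which is not stated) and sequenced as single reads, per the labels' protocols. Reads were trimmed with cutadapt 1.15 and aligned with Bowtie2 2.3.3.1 to GRCm38, per the submitters' processing notes; the counting program, its strand setting and its annotation are not given in the sources used here. The deposited table holds raw counts per gene for 46603 genes in 42 libraries, as the values show; 46005 Ensembl IDs matched a symbol in the gene name table, and positions are from GENCODE on GRCm38. A deposited FPKM table was not used.

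Counts of the 11 node Treg libraries were fitted with edgeR 4.0.16 (R 4.3.3): genes with low counts removed by filterByExpr, TMM scaling, 1 mean per group, quasi-likelihood F tests and Benjamini-Hochberg adjustment over 15079 genes, with a threshold of 0.05. CPM use the TMM-scaled library sizes, so they compare libraries and not genes of different length. Log2 fold changes are the fit's; SE is the fold change divided by the square root of F. Values within an experiment use log2(CPM + 2). Adjusted p-values in the text are from this fit unless another is named. Tconv libraries were fitted alone, and all 22 node libraries together for the difference between cell types. A gene was called shared when it passed at both sites in the same direction and not the interaction.

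The alternatives were DESeq2 1.42.0, limma 3.58.1 voom with sample weights, RLE factors, no filter beyond 1 count, experiment as a replicate block, experiments B and C alone, and each library left out. The experiment letter pairs the libraries: the series' design names 3 independent experiments, and all 15 pairs of same-letter libraries of different groups had correlated deviations from their group means (0.139 to 0.594, median 0.369, against a median of −0.1785 for other pairs, over 9025 genes). Deviations within a group sum to 0, so the negative median of other pairs follows in part from the positive values. The main fit does not use this pairing, and the fit with experiment as a replicate block does. On simulated counts with 100 genes changed by a log2 interaction of 1 and 100 by 2, the interaction test recovered 82 and 100 at 14684 genes, with 14 false calls among 196. The simulated libraries were drawn independently, with no experiment, site or shared genotype effect. The change was placed in TNFdARE mLN alone, in genes with a mean log2 CPM of at least 3. Recovery with libraries linked by experiment was not tested.

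Genes were named by rule: the 4 markers Ccr9, Stab1, Gzmb and Penk, with Tnf and Foxp3, up to 10 genes with the largest interaction in each direction and up to 8 with the largest shared change in each direction and no overlap of groups at either site, all with a mean log2 CPM of at least 3, every gene with opposite effects, and up to 3 members of each of 20 gene lists, leaving out predicted genes, pseudogenes, antigen receptor segments and sex-linked genes. Cavin1, Serpina3f, Cd74 and the other list members given were named after their values were seen. The members and lists were chosen with earlier results of these data known. Markers of 10 other cell types were summed per library. Promoter windows came from RefSeq (GRCm38.p6). Some list members are not reported by name here.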

Additional observations from a re-analysis of the deposited data

Results flagged for a closer look

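The genes below passed the interaction test of the main fit, each given as the mLN effect minus the joint-node effect on the log2 scale. Their calls were not equally stable when a library was left out, as given above. Of all 53 calls, 40 passed with voom, 24 with all 22 node libraries and 1 (Gzmb) from experiments B and C alone. Receptors with the larger effect in mLN were Havcr2 (2.49), Ltb4r1 (2.46), Ccr2 (2.40), Cxcr6 (2.06) and Ccr9 (1.76). Proteases and protease inhibitors with the larger effect in mLN were Gzmb (4.27), Adam8 (2.57), Lgmn (2.12), Mmp9 (1.98) and Serpina3g (1.61). Other genes with a positive value were Arnt2 (2.61), Frmd5 (1.94), Fabp5 (1.90), Tmem176a (1.57), Fgl2 (1.54), Ikzf3 (0.84) and Gbp3 (0.58), and the value of Rgs9bp (9.41) comes from levels under 1 CPM in all 11 libraries.

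Penk (−1.87), Dgat2 (−1.68), Wnt3 (−1.50), Stra6 (−1.43), Lad1 (−1.38), Colq (−1.34), Rarg (−1.0), Capn3 (−0.93), Nrp1 (−0.90) and Ctsw (−0.90) were below 0 with a rise in joint nodes. Pla2g4f (−1.59) and Sdc3 (−1.34) were below 0 with a fall in mLN. Gzmb, Ikzf3, Lad1 and Rgs9bp were called at both sites in opposite directions.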

How the results depend on the processing

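The interaction in node Treg gave 53 genes, and 154 with experiment as a replicate block, 187 with DESeq2, 341 with no filter beyond 1 count (28103 genes tested), 32 with all 22 node libraries in the fit and 1 from experiments B and C only; leaving out a library gave 10 to 107. The mLN effect gave 2443 genes with the replicate block and 508 to 1207 without a library. The joint-node effect gave 2046 with the replicate block, 1381 with DESeq2, 1397 with voom, 1463 with no filter and 235 from experiments B and C, and 386 to 974 without a library. Shared genes numbered 1047 with the replicate block and 157 from experiments B and C, and 245 to 437 without a library. The interaction in Tconv gave 0 genes, and 12 with DESeq2, 3 with all 22 libraries, 3 with the replicate block, 68 with no filter and 0 to 1 without a library; the difference between Treg and Tconv gave 0, and 12 with DESeq2, 3 with the replicate block, 63 with no filter and 0 to 3 without a library. Of the 53 interaction calls, 53 passed with the replicate block, 53 with RLE factors, 53 with no filter, 52 with DESeq2, 40 with voom and 24 with all 22 libraries, and all 53 kept their sign in these settings. Among values of single named genes under the alternatives, 2550 kept their direction and side of the threshold, 305 kept the direction and lost the call, 2 gained it and none reversed. The replicate block kept all 53 interaction calls and left all 462 shared genes past the test at both sites. Settings with fewer libraries have fewer residual degrees of freedom; other causes were not tested. With 2 TNFdARE mLN libraries, leaving out either leaves 1, which is then assumed to vary like the other groups. Genes near 0, such as Rgs9bp, give no usable fold at this depth.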
